A study of Arabidopsis thaliana with 18 samples.

Results

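The genes described here are 10 Arabidopsis thaliana genes that are known to be induced when the plant runs short of sulfur. They are LSU1 (AT3G49580), LSU2 (AT5G24660), LSU3 (AT3G49570), LSU4 (AT5G24655), SDI1 (AT5G48850), SDI2 (AT1G04770), APR1 (AT4G04610), APR2 (AT1G62180), APR3 (AT4G21990) and the transporter SULTR1;1 (AT4G08620). Their rows were found by locus in count tables that held 31362 rows for 33378 genes. Each of the 10 loci has a row, and 9 of the rows passed the filter on low counts that left 21343 rows for testing. The 9 tested rows are not all 10 genes, because SULTR1;1 had almost no reads. APR3 shares its row with the neighbouring autophagy gene APG8A, so that a value of the row cannot be given to either gene.

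In sulfur-limited plants the transcription factor SLIM1, also called EIL3, and others raise genes for sulfate uptake and reduction and hold back the use of sulfur in glucosinolates. SULTR1;1 is a high-affinity sulfate transporter of root epidermis and hairs. The APR genes encode adenosine-5′-phosphosulfate reductase, the step that controls the flow of sulfate into cysteine. SDI1 and SDI2 are tetratricopeptide repeat proteins, of which SDI1 is known to repress glucosinolate synthesis. The LSU genes encode small coiled-coil proteins, and their transcripts are widely used as markers of sulfur deficiency.

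The mRNA of whole Col-0 background seedlings was sequenced 11 days after germination, following in vitro growth at 22 °C in days of 18 h light and 6 h dark. There were 18 libraries in 7 groups. In the wild-type background, 35S-RTL2 plants (3 libraries) and 35S-RTL1-Myc plants (2 libraries) expressed an RNase III-like gene from the viral 35S promoter, which is active in most cells, and RTL1 carried a Myc tag. The rtl2-1 plants (3 libraries) are mutant in RTL2. The dcl234 plants carry mutations in 3 Dicer-like genes (DCL2, DCL3, DCL4), which make most small interfering RNAs, and were sequenced with 35S-RTL2 (3 libraries), with a truncated DCL1 under 35S (1 library) and with no construct (3 libraries). Col-0 (3 libraries) is the wild type. No label says how many transgenic lines were used, or whether replicates were grown apart, so p-values measure only the spread between these libraries, which may be technical. No group was labelled as starved of sulfur, and the sulfate in the medium is not given in the sources used here.

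Libraries held 20775728 to 34874423 counts. RTL1 averaged 1555 CPM (counts scaled to the library size) in 35S-RTL1-Myc plants, against 0.388 CPM in Col-0. For RTL2 the mean CPM was 557 in 35S-RTL2 and 0.410 in rtl2-1, against 2.93 in Col-0. In dcl234, the row with DCL3 averaged 3.24 CPM and DCL4 28.1 CPM, against 20.3 CPM and 31.8 CPM in Col-0, and DCL4 was not called different (edgeR adjusted p = 0.510). Although whole seedlings were labelled, markers of roots were low. Of 10 root markers, LRX1, RHD6, EXPA7 and CASP5 had at most 2 counts in any library. COBL9, PRP3, CASP2 and NRT2.1 had at most 16 to 43 counts, and the joined rows with CASP1 and PYK10 had up to 266 and 883. The sum of the 10 was 25.9 to 37.8 CPM per library, mostly from the row of PYK10, against 10641 to 18410 CPM for 6 leaf markers. In bulk tissue, fewer cells of a type and less RNA per cell cannot be told apart.

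To show what lies at the starts of these genes, the window from 250 bases before to 50 bases after the annotated start was read from RefSeq TAIR10.1 for all 10 genes. The counts were made on the TAIR9 build, and no position was carried from one build to the other. Windows of 4 genes are printed. LSU1 had the largest difference between groups, LSU2 and SDI1 had the most copies of the letters searched for, and LSU4 varied apart from the other members. Capitals mark GAGAC, the core letters of the sulfur-responsive element known from SULTR1;1, or its reverse complement.
LSU1, chr3:18375891-18376190, minus strand: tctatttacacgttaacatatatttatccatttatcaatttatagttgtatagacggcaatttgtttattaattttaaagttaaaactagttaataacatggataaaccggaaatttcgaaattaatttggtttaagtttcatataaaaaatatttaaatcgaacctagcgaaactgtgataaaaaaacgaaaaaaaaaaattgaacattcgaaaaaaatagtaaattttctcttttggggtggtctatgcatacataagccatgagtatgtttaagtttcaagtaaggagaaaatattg
LSU2, chr5:8444052-8444351, minus strand: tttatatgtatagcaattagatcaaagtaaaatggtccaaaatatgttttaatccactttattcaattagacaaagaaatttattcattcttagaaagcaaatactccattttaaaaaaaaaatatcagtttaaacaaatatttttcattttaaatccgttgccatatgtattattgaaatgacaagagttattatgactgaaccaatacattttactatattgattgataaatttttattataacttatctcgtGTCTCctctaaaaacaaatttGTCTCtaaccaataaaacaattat
LSU4, chr5:8441315-8441614, minus strand: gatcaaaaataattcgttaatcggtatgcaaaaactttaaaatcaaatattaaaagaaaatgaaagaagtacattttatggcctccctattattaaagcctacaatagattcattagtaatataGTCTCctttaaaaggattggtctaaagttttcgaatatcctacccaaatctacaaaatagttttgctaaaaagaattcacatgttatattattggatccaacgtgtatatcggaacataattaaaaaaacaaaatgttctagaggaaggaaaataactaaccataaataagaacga
SDI1, chr5:19807804-19808103, minus strand: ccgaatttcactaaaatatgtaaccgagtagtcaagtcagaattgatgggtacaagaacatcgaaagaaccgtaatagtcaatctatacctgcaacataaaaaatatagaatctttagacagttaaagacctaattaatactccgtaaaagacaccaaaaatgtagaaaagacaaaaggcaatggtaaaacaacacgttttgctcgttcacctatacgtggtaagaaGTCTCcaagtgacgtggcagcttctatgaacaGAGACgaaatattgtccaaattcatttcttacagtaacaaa
GAGAC on either strand was present in 3 of the 10 windows, those of LSU2, LSU4 and SDI1, while 32.8% of 27443 windows of annotated genes held it. The G-box CACGTG, the site of the light factor HY5 among others, was present in the window of LSU3 alone, against 7.68% of all windows. A match is a description of letters and not a bound site, and no match says only that the letters are not in this window.

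Neighbouring members are close copies. In TAIR10.1, LSU3 and LSU1 lie next to each other on the minus strand of chromosome 3 with 1760 bases between them, and LSU4 and LSU2 on the minus strand of chromosome 5 with 1914 bases between them. Their coding sequences were 80.7% identical for LSU1 and LSU3 and 87% for LSU2 and LSU4. The longest shared run was 23 bases in the first pair and 30 bases in the second pair. APR1 and APR3 were 80.2% identical with a longest shared run of 41 bases. Only a read that lies wholly within such a run could be counted for either copy on its coding sequence, and how often this happened was not tested. APG8A and APR3 overlap by 27 bases on opposite strands of chromosome 4.

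**Figure D1:**
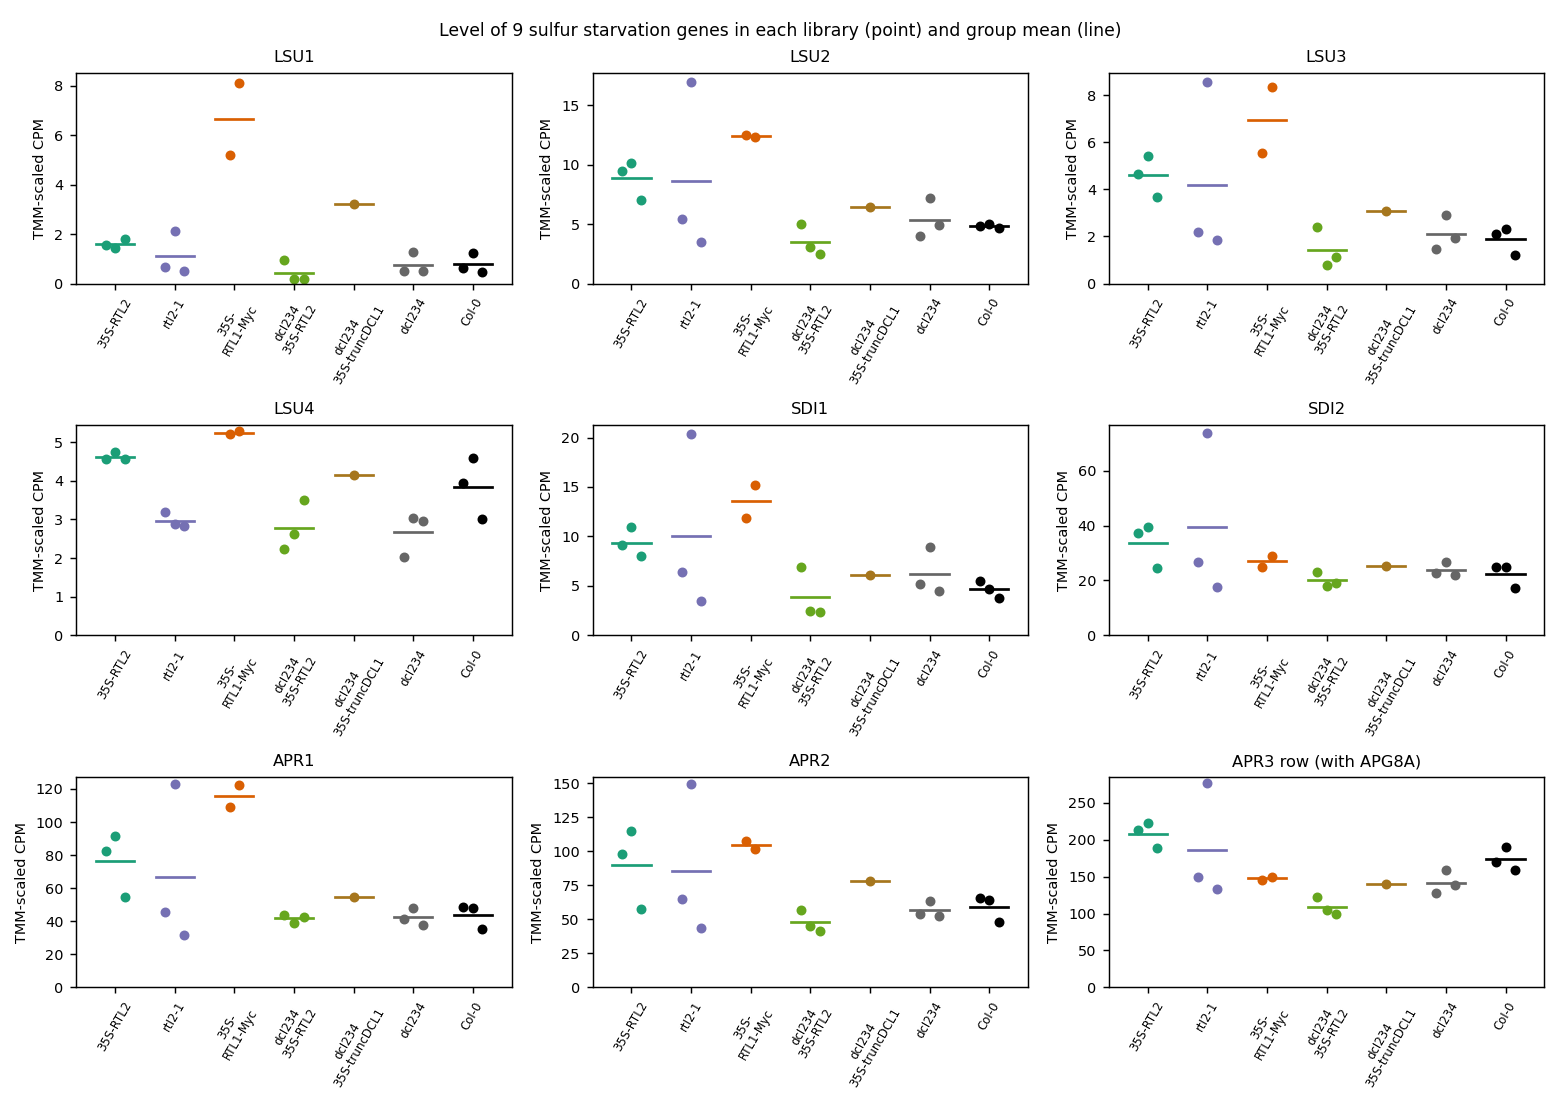
CPM after TMM scaling for the 9 tested sulfur starvation genes, with 1 point per library, a line at the group mean and the linear vertical axis starting at 0. The 2 libraries of 35S-RTL1-Myc stand above the 3 of Col-0 for 7 genes, and 1 library of rtl2-1 stands far above the other two for 8 genes.

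Across the 7 groups, edgeR's quasi-likelihood test found a difference in 5 of the 9 tested members, against 40.7% of all rows tested. The count was 2 to 9 when 1 library was left out, and it was 2 without 35S-RTL2 replicate 1 or 2 or dcl234 35S-RTL2 replicate 2 or 3. With all libraries the members called were LSU1 (adjusted p = 0.00152), LSU4 (0.00704), the APR3 row (0.0285), LSU3 (0.0317) and APR1 (0.0318). The mean was highest in 35S-RTL1-Myc plants for 7 members. It was lowest in dcl234 35S-RTL2 plants for 8 members, and for LSU4 it was lowest in dcl234. Neighbours in this order mostly overlapped in their libraries. The highest group stood clear of the next in order for LSU1, LSU2, LSU3, LSU4 and APR1, although the single highest library for LSU2, LSU3 and APR1 was rtl2-1 replicate 2. The second group was also clear of the third for LSU1, where it was truncated DCL1 in dcl234, and for LSU4, where it was 35S-RTL2.

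The largest differences were in RTL1 overexpression. Of the 9 tested members, 4 were called higher in 35S-RTL1-Myc plants than in Col-0 and none was called lower (edgeR, adjusted p below 0.05). The called genes were LSU1, LSU2, LSU3 and APR1. In this comparison 29.5% of all rows tested were called, 14.8% higher and 14.7% lower. The median log2 fold change of the members was 1.36, against −0.00 for all rows.

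LSU1 had 5.21 and 8.10 CPM in the 35S-RTL1-Myc libraries, against 0.627, 1.24 and 0.474 CPM in Col-0. Every 35S-RTL1-Myc library lay above every Col-0 library. The log2 fold change was 3.07 (SE 0.62, adjusted p = 0.00187), the largest of any member in any comparison. LSU3, its neighbour, had 5.54 and 8.34 CPM in 35S-RTL1-Myc, against 2.09, 2.34 and 1.21 CPM in Col-0. Its groups did not overlap either, with a log2 fold change of 1.88 (SE 0.56, adjusted p = 0.0206).

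LSU2 had 12.5 and 12.3 CPM in 35S-RTL1-Myc, against 4.85, 4.97 and 4.70 CPM in Col-0. The libraries of each group were close together, and the log2 fold change was 1.36 (SE 0.47, adjusted p = 0.0408). LSU4, the tandem neighbour of LSU2, had 5.21 and 5.28 CPM in 35S-RTL1-Myc, against 3.93, 4.60 and 3.02 CPM in Col-0. Its groups did not overlap, but the log2 fold change of 0.44 (SE 0.21) was not called (adjusted p = 0.129).

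The repeat proteins were not called. SDI1 had 11.9 and 15.2 CPM in 35S-RTL1-Myc, against 5.52, 4.67 and 3.75 CPM in Col-0, with a log2 fold change of 1.55 (SE 0.57, adjusted p = 0.0543). Its groups stood apart, and the p lay just beyond the threshold. SDI2 had 24.8 and 29.0 CPM in 35S-RTL1-Myc, against 24.8, 25.1 and 17.1 CPM in Col-0. These groups overlapped, with a log2 fold change of 0.27 (SE 0.41, adjusted p = 0.664).

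Among the reductases, APR1 had 109 and 122 CPM in 35S-RTL1-Myc, against 48.4, 48.0 and 35.4 CPM in Col-0. It was 2.63-fold higher (log2 1.40, SE 0.38, adjusted p = 0.0131) with no overlap. APR2 had 108 and 102 CPM in 35S-RTL1-Myc, against 65.5, 64.3 and 48.3 CPM in Col-0. Its log2 fold change of 0.82 (SE 0.37) was not called (adjusted p = 0.116), although the groups did not overlap. The APR3 row had 146 and 149 CPM in 35S-RTL1-Myc, against 170, 191 and 160 CPM in Col-0, and was the only member with all 35S-RTL1-Myc libraries below Col-0, as were 30.9% of all rows (log2 −0.23, SE 0.23, adjusted p = 0.473).

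In all, 7 of 9 members had every 35S-RTL1-Myc library above every Col-0 library, against 30.6% of all rows tested. Because the members share these libraries and vary together, the 7 are not separate observations. The median difference of the members was 1.28 and 1.09 on the log2 scale within the libraries whose tables carried the number 2 and the number 3 in their deposited names, a number whose meaning is not given. With only 2 libraries of RTL1 overexpression, the count of 4 fell to 1, LSU1, when 35S-RTL1-Myc replicate 2 or Col-0 replicate 3 was left out. LSU1 was called under all 11 alternatives tried, with log2 fold changes of 2.73 to 3.58.

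**Figure D2:**
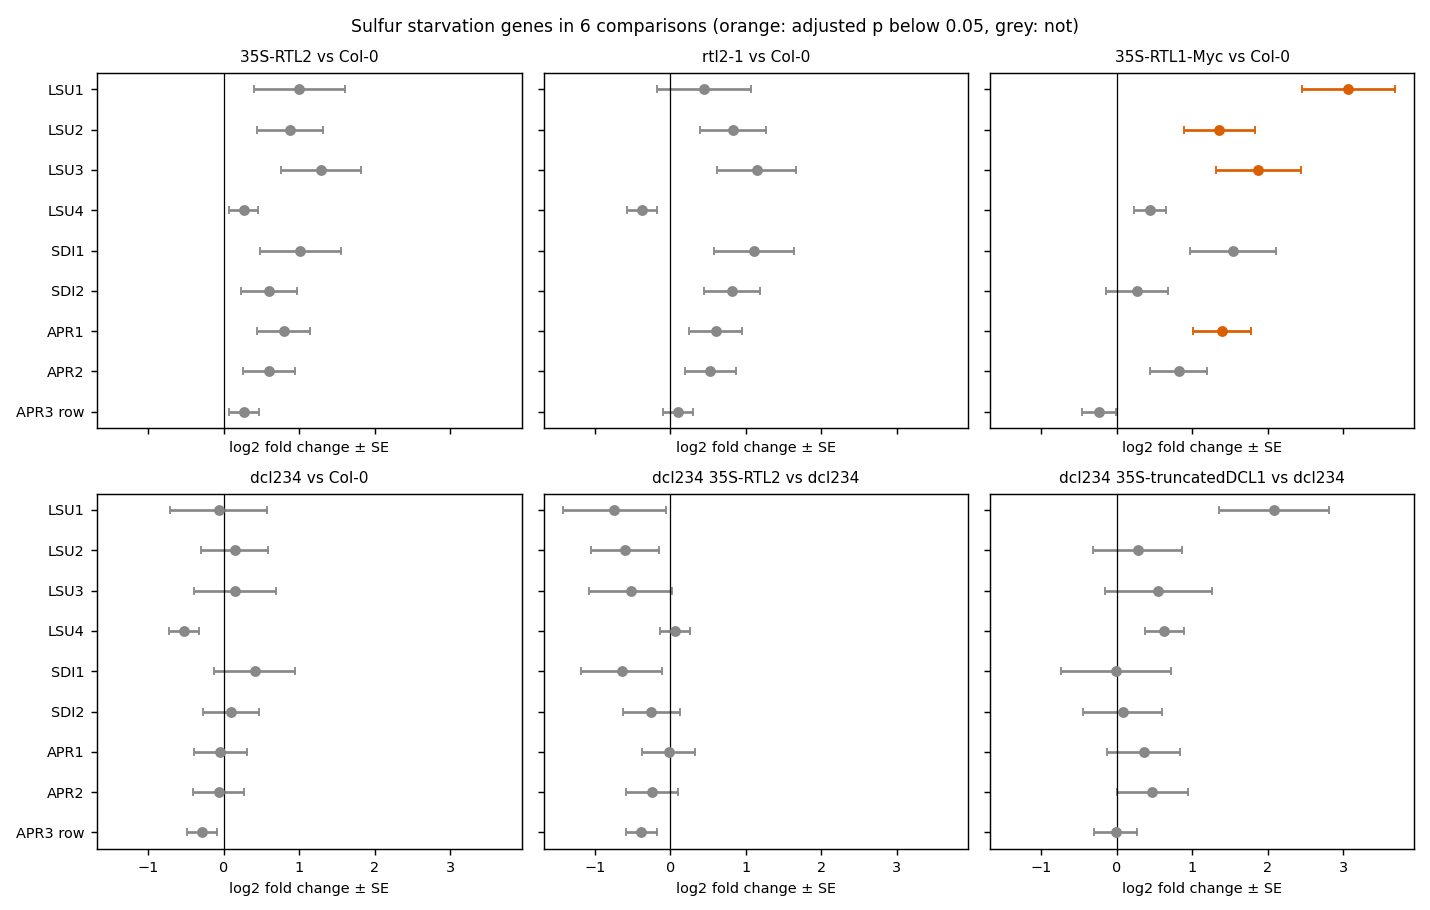
Log2 fold change with its standard error for each tested gene in 6 comparisons, each titled with the first group over the second. Calls were made in 35S-RTL1-Myc against Col-0 alone, for LSU1, LSU2, LSU3 and APR1, while in 35S-RTL2 against Col-0 all 9 points lie above 0 without a call.

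The rest of the sulfur pathway was mixed in the same comparison. Among 37 further genes, 12 were called higher and 4 lower in 35S-RTL1-Myc than in Col-0, with a median log2 fold change of 0.33. Of all rows tested, 14.8% were called higher and 14.7% lower. Of these 37 genes, 6 lie in rows that join another gene. The 9 genes of sulfate activation and reduction had 6 higher and 1 lower, with a median of 0.69. SIR, the sulfite reductase that acts after APR, averaged 262 ± 2.59 CPM in 35S-RTL1-Myc and 145 ± 11.0 CPM in Col-0 (SD, n = 2 and 3). APK2, a kinase that draws the APR substrate towards sulfated compounds such as glucosinolates, averaged 41.4 ± 6.04 CPM in 35S-RTL1-Myc and 8.21 ± 0.229 CPM in Col-0, and its relative APK1 averaged 51.8 ± 3.03 CPM in 35S-RTL1-Myc and 31.9 ± 2.11 CPM in Col-0.

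Of 11 other sulfate transporters, 2 were higher and 1 was lower in 35S-RTL1-Myc, near the shares of all rows, 14.8% and 14.7%. Their median log2 fold change was 0.24. SULTR3;1, a chloroplast transporter, averaged 205 ± 8.16 CPM in 35S-RTL1-Myc and 93.9 ± 11.7 CPM in Col-0. SULTR3;3 had a log2 fold change of 0.66 (SE 0.23). Of 10 genes of cysteine and glutathione synthesis, 3 were higher and 2 lower, beside the same shares of all rows, with a median of 0.13. The row that joins the serine acetyltransferase SERAT3;2 with PSAT averaged 32.3 ± 0.133 CPM in 35S-RTL1-Myc and 114 ± 9.45 CPM in Col-0. SERAT2;1, another serine acetyltransferase, averaged 12.2 ± 3.19 CPM in 35S-RTL1-Myc and 35.9 ± 2.53 CPM in Col-0, and SERAT3;1 had a log2 fold change of 0.59 (SE 0.14).

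Of 4 regulators, 1 was called, against 29.5% of all rows. HY5, which is known to bind APR promoters, averaged 19.3 ± 1.06 CPM in 35S-RTL1-Myc and 10.2 ± 0.700 CPM in Col-0 (log2 0.91, SE 0.20, adjusted p = 0.00302). SLIM1 averaged 24.6 ± 0.195 CPM in 35S-RTL1-Myc and 21.6 ± 0.254 CPM in Col-0 and was not called (log2 0.19, adjusted p = 0.117). The 3 other genes known to be induced by sulfur deficiency, SHM7, GGCT2;1 and BGLU28, had unadjusted p of 0.0756 or more in edgeR's test, and all 3 had both 35S-RTL1-Myc libraries above every Col-0 library, where 30.6% of all rows did.

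The microRNA miR395 is induced by sulfur deficiency and cuts transcripts of SULTR2;1 and of the ATP sulfurylases ATPS1, ATPS3 and ATPS4, the first enzymes of sulfate activation. Of its targets, ATPS1 (log2 1.24, SE 0.24) and ATPS3 (0.69, SE 0.24) were called higher in 35S-RTL1-Myc, SULTR2;1 (−0.55, SE 0.17) was called lower, and the ATPS4 row (−0.73, SE 0.27, adjusted p = 0.0520) was not called. Precursors of miR395 were hardly counted in the mRNA libraries. MIR395A, MIR395C, MIR395D and MIR395F had 0 counts in all 18 libraries, MIR395B at most 1 and MIR395E at most 6, so none was tested. MIR395E had 0 counts in both 35S-RTL1-Myc libraries, against 0.0836, 0.151 and 0.216 CPM in Col-0, and the limit that 0 counts allow, 3 counts, was 0.0852 to 0.144 CPM across libraries.

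**Figure D3:**
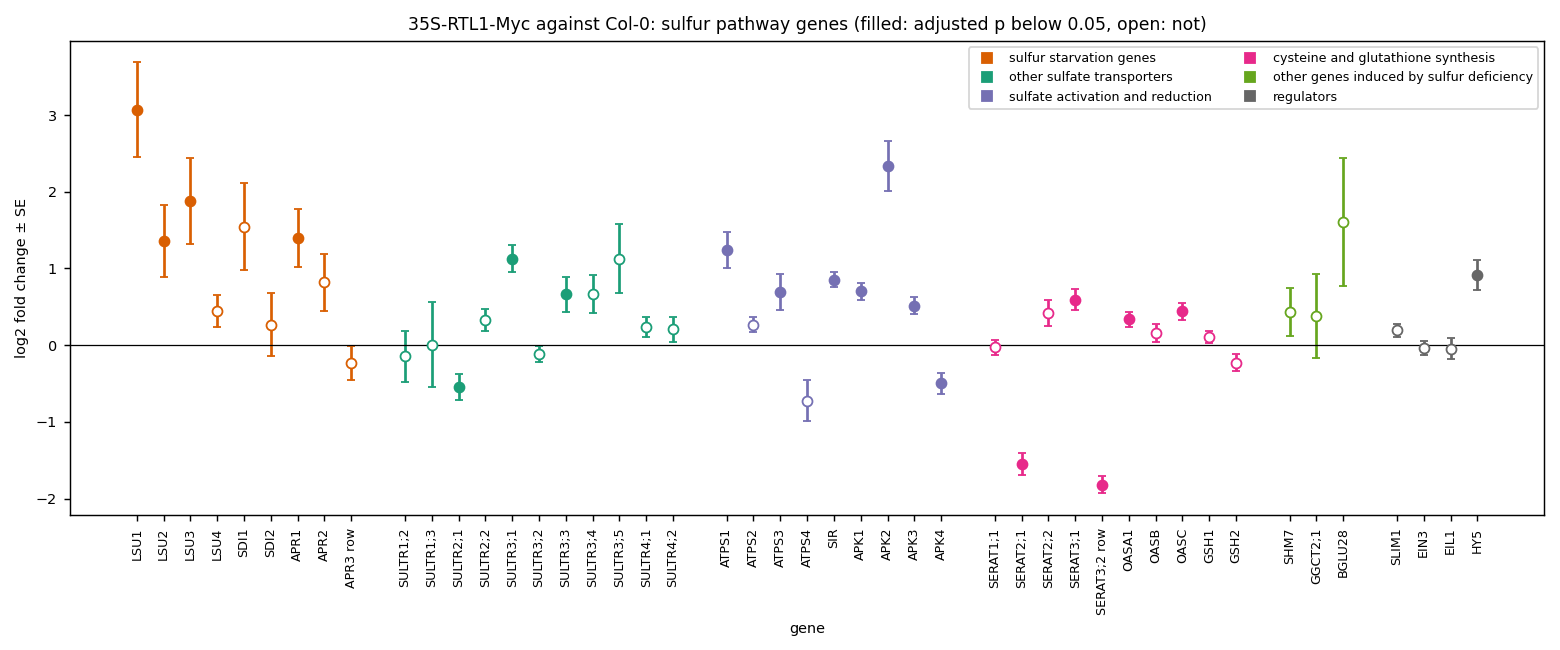
Log2 fold change with its standard error in 35S-RTL1-Myc against Col-0 for the tested sulfur starvation genes and 37 further genes of the sulfur pathway, coloured by list, with filled points for adjusted p below 0.05. APK2 at 2.33 and LSU1 at 3.07 are the highest, and the row with SERAT3;2 at −1.82 is the lowest.

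Clock genes also differed in 35S-RTL1-Myc plants and in the truncated DCL1 library. LHY, a morning-phased clock gene, averaged 127 ± 31.7 CPM in 35S-RTL1-Myc and 3.82 ± 0.605 CPM in Col-0, and it had 26.1 CPM in the truncated DCL1 library against 2.60 ± 0.232 CPM in dcl234. CCA1 averaged 116 ± 16.8 CPM in 35S-RTL1-Myc and 7.52 ± 2.12 CPM in Col-0. PRR9 averaged 37.0 ± 4.98 CPM in 35S-RTL1-Myc and 4.84 ± 1.16 CPM in Col-0. Of 10 clock genes, 3 were called higher and 6 lower in 35S-RTL1-Myc, where 14.8% of all rows were called higher and 14.7% lower. With truncated DCL1 the log2 fold changes of these 10 genes against dcl234 ran from −2.65 to 3.64. No label gives the time of day at harvest. Of the 6 root markers tested, PRP3 was called higher and COBL9 lower in 35S-RTL1-Myc, both at 1.25 CPM or less in every library, and of 6 leaf markers RBCS2B and CAB3 were called lower. The part of the clock genes and tissue markers in the differences of the sulfur genes was not tested.

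RTL2 overexpression gave smaller differences. None of the 9 members was called in 35S-RTL2 against Col-0 by edgeR (adjusted p = 0.899 for each), 2 had an unadjusted p under 0.05, and DESeq2 called 0. In this comparison 0.00937% of all rows tested were called, and 956 of the 21343 rows had an unadjusted p under 0.05. All 9 fold changes were above 0, from 0.26 to 1.29 on the log2 scale, with a median of 0.79 against −0.00 for all rows. For 5 members every 35S-RTL2 library lay above every Col-0 library, against 5.01% of all rows. These were LSU1, LSU2, LSU3, SDI1 and APR1. The members share these libraries and vary together, so the 5 genes and the 9 equal signs are not separate observations. The median difference of the 9 members was 0.40 within the number 2 of the table names and 0.83 within the number 3.

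LSU3 had 4.67, 5.43 and 3.70 CPM in 35S-RTL2, against 2.09, 2.34 and 1.21 CPM in Col-0. The groups stood apart, with a log2 fold change of 1.29 (SE 0.53, unadjusted p = 0.0278). APR1 had 82.7, 91.3 and 54.7 CPM in 35S-RTL2, against 48.4, 48.0 and 35.4 CPM in Col-0, with a log2 fold change of 0.79 (SE 0.35, unadjusted p = 0.0396). The 35S-RTL2 libraries lay above Col-0, and the third was closest to it.

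LSU1 had 1.54, 1.43 and 1.79 CPM in 35S-RTL2, against 0.627, 1.24 and 0.474 CPM in Col-0 (log2 1.00, SE 0.61). LSU2 had 9.48, 10.2 and 6.99 CPM in 35S-RTL2, against 4.85, 4.97 and 4.70 CPM in Col-0 (log2 0.87, SE 0.44). SDI1 had 9.19, 11.0 and 8.01 CPM in 35S-RTL2, against 5.52, 4.67 and 3.75 CPM in Col-0 (log2 1.01, SE 0.53). These 3 genes did not overlap between groups and were not called. SDI2, APR2, LSU4 and the APR3 row overlapped, with log2 fold changes of 0.60, 0.60, 0.26 and 0.26. Of the 37 further pathway genes, edgeR and DESeq2 each called 0, and 6 had an unadjusted p under 0.05.

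In rtl2-1, the mutant of the same gene, the group mean was set by 1 library. No member was called against Col-0 by edgeR (adjusted p = 0.427 or more) or by DESeq2, where edgeR called 0.122% of all rows. In edgeR's test the unadjusted p was under 0.05 for 2 members and for 2427 of all 21343 rows. Fold changes were above 0 for 8 of 9 members, with a median of 0.60. The groups overlapped for all 9, while 6.97% of all rows lay wholly higher and 6.32% wholly lower in rtl2-1. SDI1 had 6.38, 20.4 and 3.48 CPM in rtl2-1, against 5.52, 4.67 and 3.75 CPM in Col-0. APR1 had 45.7, 123 and 31.8 CPM in rtl2-1, against 48.4, 48.0 and 35.4 CPM in Col-0. SDI2 had 26.9, 73.7 and 17.7 CPM in rtl2-1, against 24.8, 25.1 and 17.1 CPM in Col-0. In each gene replicate 2 was far above Col-0, while the others lay near it.

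Without rtl2-1 replicate 2 the median of the members was −0.13 and 6 fold changes turned below 0. The median difference was 0.85 within the number 2 of the table names, which held that library, and −0.51 within the number 3. LSU4 did not follow, with 3.19, 2.88 and 2.84 CPM in rtl2-1, against 3.93, 4.60 and 3.02 CPM in Col-0. The rtl2-1 replicate 2 library had the highest root marker sum of all libraries, 37.8 CPM, and the lowest leaf marker sum, 10641 CPM. The joined row with CASP1, which also counts AT2G36090, was at its highest in this library, 11.3 CPM, against 1.36 CPM in the lowest library. The part of these markers in the sulfur gene levels of rtl2-1 replicate 2 was not tested.

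The dcl234 mutant was near Col-0 for these genes. No member was called by edgeR (adjusted p = 0.163 or more) or by DESeq2, where edgeR called 4.56% of all rows. In edgeR's test the unadjusted p was under 0.05 for 1 member and for 3692 of all 21343 rows. Fold changes ran from −0.53 to 0.41 with a median of −0.05, which lay between −0.19 and 0.16 when 1 library was left out. No Col-0 library carried the number 1 in its table name, and no dcl234 library the number 2. Within the number 3, with 1 library of each group, the median difference was −0.29 and 0 of 9 members lay above 0. The member with an unadjusted p under 0.05 was LSU4, with 2.03, 3.03 and 2.95 CPM in dcl234, against 3.93, 4.60 and 3.02 CPM in Col-0 (log2 −0.53, SE 0.20, unadjusted p = 0.0170). Its groups overlapped narrowly, by the highest dcl234 and the lowest Col-0 library. The APR3 row had 127, 159 and 139 CPM in dcl234, against 170, 191 and 160 CPM in Col-0, with no overlap (log2 −0.29, SE 0.20), as was so for 18.2% of all rows in this direction. The gap was very narrow, between 159.476 CPM in dcl234 replicate 2 and 159.575 CPM in Col-0 replicate 3. Among the 37 further genes SERAT2;1 was called lower, at 22.9 ± 1.03 CPM in dcl234 and 35.9 ± 2.53 CPM in Col-0 (log2 −0.65, adjusted p = 0.00914).

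RTL2 was also overexpressed in dcl234, where it averaged 1829 CPM, against 3.24 CPM in dcl234. None of the members was called against dcl234 by edgeR (adjusted p = 0.997 or more) or by DESeq2, where edgeR called 0.0609% of all rows. In edgeR's test the unadjusted p was under 0.05 for 0 members and for 1157 of all 21343 rows. Of 9 fold changes 8 were below 0, with a median of −0.38, which was −0.18 without dcl234 replicate 2 and −0.24 without dcl234 35S-RTL2 replicate 2. LSU2 had 4.99, 3.04 and 2.51 CPM in dcl234 35S-RTL2, against 4.03, 7.17 and 4.89 CPM in dcl234. SDI1 had 6.93, 2.46 and 2.35 CPM in dcl234 35S-RTL2, against 5.22, 8.90 and 4.49 CPM in dcl234. Both overlapped, and replicate 1 was the highest library of dcl234 35S-RTL2 for 8 members. The APR3 row alone did not overlap, with 122, 104 and 99.9 CPM in dcl234 35S-RTL2, against 127, 159 and 139 CPM in dcl234 (log2 −0.38, SE 0.20), where 7.65% of all rows were wholly lower.

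The difference between the RTL2 effects in dcl234 and in Col-0 was tested directly. The effect was lower in dcl234 for all 9 members, by a median of −0.85 on the log2 scale and a range of −1.81 to −0.20. None was called by edgeR (adjusted p = 0.891 or more), 4 had an unadjusted p under 0.05, and DESeq2 called 0. In this test 0.00937% of all rows were called, and 1123 of the 21343 rows had an unadjusted p under 0.05. The difference was −1.81 for LSU3 (SE 0.76, unadjusted p = 0.0318), −1.74 for LSU1 (SE 0.91, unadjusted p = 0.0761), −1.66 for SDI1 (SE 0.76, unadjusted p = 0.0450) and −0.20 for LSU4 (SE 0.28). Without dcl234 35S-RTL2 replicate 1, in which LSU1 had 0.948 CPM against 0.167 and 0.199 CPM in replicates 2 and 3, the range was −3.01 to −0.06. All members share the same 12 libraries in this test and vary together, so that 9 equal signs are not 9 separate observations. The mean RTL2 level given above was higher in dcl234 35S-RTL2 than in 35S-RTL2, so background and RTL2 level cannot be told apart here. No Col-0 library carried the number 1 in its table name, while libraries of 35S-RTL2, dcl234 and dcl234 35S-RTL2 did. With this number as a term the median was −0.85.

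Truncated DCL1 in dcl234 rests on 1 library, which the test assumes to vary like the other groups. No member was called against dcl234 by edgeR or DESeq2, where edgeR called 5.65% of all rows. LSU1 had 3.21 CPM in the truncated DCL1 library, against 0.518, 1.29 and 0.502 CPM in dcl234. It lay above all dcl234 libraries, with a log2 fold change of 2.08 (SE 0.73). LSU4 had 4.14 CPM with truncated DCL1, against 2.03, 3.03 and 2.95 CPM in dcl234 (log2 0.63, SE 0.26). For 5 members the lone library lay above all dcl234 libraries, against 34.9% of all rows. The median log2 fold change of the members hardly changed when the fit used these 4 libraries alone. Calls from that fit are not given, because 1 of its groups held a single library. Among the 37 further genes, SULTR3;1 was called higher at 226 CPM with truncated DCL1 and 86.7 ± 1.45 CPM in dcl234, and the row with SERAT3;2 was called lower at 65.9 CPM with truncated DCL1 and 108 ± 9.88 CPM in dcl234.

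SULTR1;1 could not be compared. It had 0 counts in 17 libraries and 1 count in dcl234 replicate 3. A count of 0 allows a level of up to 3 counts, which is 0.0852 to 0.144 CPM across libraries, for counting error only. The root markers LRX1, RHD6, EXPA7 and CASP5 were near 0 in the same libraries. COBL9, PRP3 and CASP2 had counts in every library, at most 35, 16 and 29. The part of root tissue in the SULTR1;1 counts was not tested.

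Within groups the members varied more than most rows. The SD of log2(CPM + 0.5) within groups had 11 degrees of freedom and a median of 0.17 over all rows. It was 0.47 to 0.67 for 7 members, a spread larger than that of 95.5% to 98.6% of rows. SDI1 had the largest at 0.67. Much of this came from 1 library. Without rtl2-1 replicate 2, a choice made after seeing the data, the SD of the same 7 members was 0.26 to 0.48, above that of 81.4% to 96.9% of rows, with 0.15 as the median over all rows. The APR3 row then had 0.13, above 43.1% of rows, and LSU4 had 0.21. With all libraries LSU4, with an SD of 0.20, and the APR3 row, with 0.27, stood apart from the rest, above 61.7% and 78.2% of rows. Beside rows of like level, LSU4 exceeded 31.9% and the other 8 members 89.2% to 99.0%. The regulator SLIM1 exceeded 8.06% of rows with an SD of 0.08. The standard errors of the tests above come from edgeR's own fit to the counts and not from this SD.

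**Figure D4:**
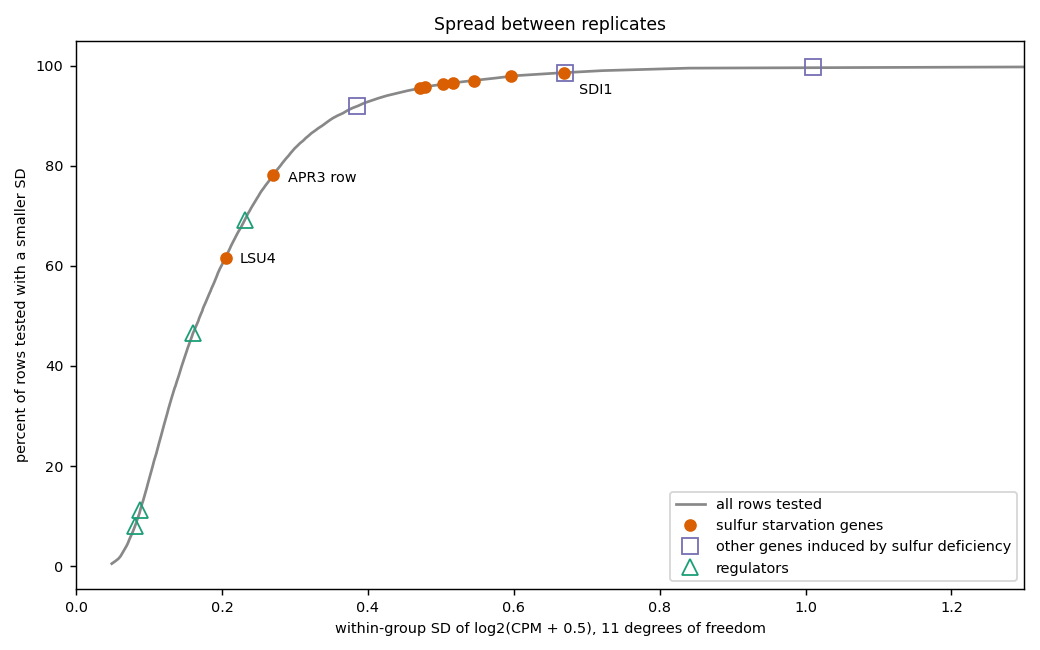
Within-group SD of log2(CPM + 0.5) on the horizontal axis against the percent of tested rows with a smaller SD, with the curve for all rows tested and points for 9 sulfur starvation genes, 3 other genes induced by sulfur deficiency and 4 regulators. Of the sulfur starvation genes, 7 lie beyond the 95th percentile, and LSU4 and the APR3 row lie lower on the curve. Without rtl2-1 replicate 2 the SDs of these 7 were 0.26 to 0.48.

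The members went up and down together among replicates. In rtl2-1 replicate 2, 8 of 9 were at the highest of their group, with a median of 1.11 above the group mean on the log2 scale, where 36.8% of all rows were highest. In rtl2-1 replicate 3, 9 of 9 were lowest, against 32% of all rows. In dcl234 replicate 2, 9 of 9 were highest, against 32.6% of rows, and in Col-0 replicate 3, 9 of 9 were lowest, against 34.3%. In 35S-RTL2 replicate 2, 8 were highest, against 29.0% of rows, and in 35S-RTL2 replicate 3, 8 were lowest, against 38.3%. LSU4 was the exception in rtl2-1 replicate 2 and in dcl234 35S-RTL2 replicate 1, where it was not the highest. In 35S-RTL2 the exception was LSU1, which was lowest in replicate 2 (−0.11 from the group mean) and highest in replicate 3 (0.14).

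With group means subtracted, the median Pearson r of the 36 pairs of members over 18 libraries was 0.88. Without the pairs of LSU4 the median was 0.91 and the lowest 0.64. SDI2 and APR1 had the highest r at 0.99, and LSU4 with SDI1 the lowest at −0.11. Without rtl2-1 replicate 2 the median was 0.72, and without the pairs of LSU4 it was 0.76 with a lowest of 0.34. The points share libraries and depth, so the values are a description.

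**Figure D5:**
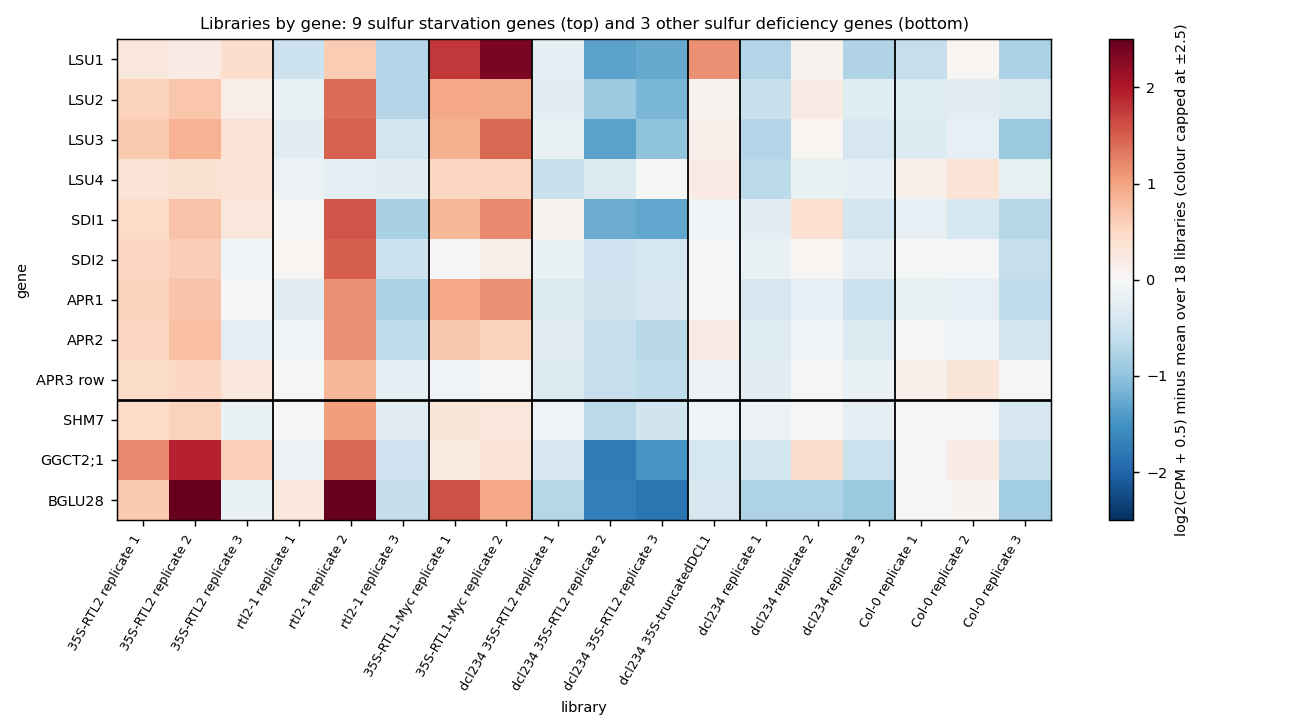
Log2(CPM + 0.5) of each gene minus its mean over the 18 libraries, from blue (below) to red (above) with the colour capped at both ends, and with libraries in columns by group, 9 sulfur starvation genes in the upper rows and 3 other sulfur deficiency genes in the lower rows. The columns of rtl2-1 replicate 2 and of 35S-RTL1-Myc are red in most upper rows, and the row of LSU4 is pale in rtl2-1 replicate 2.

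The 8 rows most like the members were sought among 18504 others with a mean of at least 1 CPM, by the Pearson r of their log2 CPM with the mean standardised level of the members over 18 libraries. The closest was OST1, a protein kinase of abscisic acid signalling in guard cells, with r = 0.94 and with 0.95 after group means were subtracted. SHM7, a serine hydroxymethyltransferase-like gene known as sulfur-responsive, was the third with r = 0.92, and BGLU28, a beta-glucosidase also induced by sulfur deficiency, the fifth with r = 0.91. The others were AT5G66070, AT2G46150, the P450 reductase gene ATR2, AT2G42490 and the peroxisome gene PEX13, with r of 0.91 to 0.92. Over the 17 libraries without rtl2-1 replicate 2, OST1 and SHM7 kept the ranks 1 and 3, and the other rows took ranks 6 to 19. These values describe likeness over the same libraries and say nothing of shared function.

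SHM7 had 59.9, 128 and 51.1 CPM in rtl2-1, against 61.1, 59.9 and 45.5 CPM in Col-0, with the same high library as the members. BGLU28 had 9.00, 52.3 and 4.70 CPM in rtl2-1 and 12, 44.3 and 6.58 CPM in 35S-RTL2, against 7.11, 7.76 and 3.88 CPM in Col-0. In rtl2-1 and in 35S-RTL2 replicate 2 stood far above the others. GGCT2;1, a gamma-glutamyl cyclotransferase of glutathione breakdown that was singled out after its values were seen, had 39.7, 66.7 and 26.3 CPM in 35S-RTL2, against 17, 19.8 and 11.6 CPM in Col-0. These groups did not overlap, and the gene was not called (log2 1.46, SE 0.50, adjusted p = 0.899).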

How the data were processed

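Each library's file, as the authors deposited it, is a table of raw counts with no normalization. TAIR9 is the build named in the submitters' processing notes. Which aligner and counter were used, and whether strand was read, is not given in the sources used here, so reads of overlapping or antisense genes cannot be told apart. In 1897 rows overlapping genes are joined, and these rows held 13.6% of the counts (median of libraries). Rows were filtered with filterByExpr, scaled by TMM and tested with edgeR 4.0.16 (glmQLFit, glmQLFTest) in R 4.3.3, with 1 model and a mean per group over 18 libraries. P-values were adjusted over all 21343 rows by the Benjamini-Hochberg method, and a gene was called below 0.05. Levels are CPM after TMM scaling, and a prior of 0.5 CPM was added where log2 CPM are described. Errors are SEs from the F statistic, or SDs over replicates. Alternatives were DESeq2 1.42.0, its size factors in edgeR, no filter, the compared groups alone, the replicate number as a block, the number in the table name as a term, and each library left out.

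The members and gene lists were chosen with earlier results of these data known. One root marker is not reported here. From each list a comparison names up to 3 called genes with the smallest adjusted p. The miR395 genes and the 8 rows of most like pattern are always named. Same-numbered replicates of 35S-RTL2 and Col-0 deviated together over all rows (r = 0.35, 0.12 and 0.22), as did those of dcl234 and Col-0 (r = 0.34, 0.18 and 0.25). Pairing may hold there, but the main tests did not pair libraries, and the replicate number as a block was an alternative only. No label states what a number marks. Both tests were run on simulated counts. There DESeq2 made more false calls than its nominal level, most in the comparison with 2 libraries of 35S-RTL1-Myc, and the limit on false calls, first set for both tools, was then kept for edgeR alone. Promoter windows, positions and coding identities come from RefSeq TAIR10.1, read with Python 3.11.15 and Biopython 1.88.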

Additional observations from a re-analysis of the deposited data

How the results depend on the processing

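The count of 4 members called in 35S-RTL1-Myc against Col-0 was 6 with the compared groups alone (SDI1 and APR2 added), 5 with DESeq2 (SDI1 added) and 3 with the number in the table name as a term (LSU2 lost). Leaving out 1 library gave 1 to 3. LSU1 was called in 11 of 11 alternatives, APR1 and LSU3 in 9 and LSU2 in 5. In dcl234 35S-truncatedDCL1 against dcl234 no count is given for the compared groups alone, because 1 group held a single library. The count of 5 members that differed among the 7 groups was 8 with DESeq2, 2 with the number in the table name as a term (LSU1 and LSU4) and 2 to 9 with 1 library left out. It was 8 without rtl2-1 replicate 2, 9 without rtl2-1 replicate 3, and 2 without 35S-RTL2 replicate 1 or 2 or dcl234 35S-RTL2 replicate 2 or 3. The causes were not tested. The share of all rows called under each alternative is not given here, so a changed count cannot be told from a general change in calls. In rtl2-1 against Col-0, leaving out 1 library gave log2 fold changes of −0.18 to 0.94 for APR1, −0.13 to 0.85 for APR2, −0.30 to 0.29 for the APR3 row, −0.44 to 0.96 for LSU1, −0.12 to 1.21 for LSU2 and −0.0067 to 1.17 for SDI2, each lowest, and below 0, without rtl2-1 replicate 2. With the replicate number as a block, the calls were again 4 in 35S-RTL1-Myc and 0 in the other comparisons that could be fitted so, and 6 among the groups. The paired numbers of rtl2-1 and Col-0 deviated together less evenly (r = 0.51, 0.07 and 0.30), those of 35S-RTL1-Myc and Col-0 did not (0.23 and −0.15), nor those of dcl234 35S-RTL2 and dcl234 (−0.35, 0.05 and −0.01). No paired analysis was possible for truncated DCL1 because a single library shares fewer than 2 replicate numbers with dcl234. Among the tested members depth limits LSU1 most, with 4 to 238 counts per library.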
